A study of Homo sapiens with 6 samples.

Results

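The 10 genes described here encode ligands through which a tumor cell can restrain T cells, natural killer cells or macrophages, together with a protein that keeps such a ligand on the cell surface. They are CD274, PDCD1LG2, CD276, VTCN1, HHLA2, PVR, NECTIN2, LGALS9, CD47 and CMTM6, and they were found by symbol among the 60676 genes that each deposited table lists. All 10 were found. The set was selected on values of these same data, the levels and fold changes of CD274 and related genes in the comparisons given here, so differences of its members between conditions are a description, without p-values. Membership itself has no threshold.

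The values come from RNA-seq of HT29, an established wild-type human line of colon adenocarcinoma. Cells were kept for 48 h in control medium (untreated) or in medium that lacked either histidine or tryptophan, with 2 libraries per condition and 6 in all. Both depletions are compared with the same 2 untreated libraries. Histidine-free medium was made from an RPMI 1640 base and tryptophan-free medium from DMEM F-12, both with dialyzed serum, while the base of the control medium for RNA-seq is not named in the sources used here, so a missing amino acid and a change of base medium cannot be told apart. Whether replicates were separate cultures is not named either, and p-values then measure only the spread between these samples. In bulk RNA, more RNA per cell and a larger share of expressing cells cannot be told apart.

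Checkpoint ligands are surface or secreted proteins that bind inhibitory receptors on immune cells. PD-L1, the product of CD274, and PD-L2, the product of PDCD1LG2, bind PD-1 on T cells. In epithelial tumor cells CD274 is known to be induced by interferon-gamma through JAK kinases and IRF1, and by NF-kB and AP-1 factors, while CMTM6 protects the protein from degradation. PVR and NECTIN2 bind the inhibitory receptor TIGIT and also the activating receptor CD226, and CD47 binds SIRPA on macrophages.

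Each library held between 46.4 and 64.4 M reads, as recovered from the deposited values. The cells carried the markers of colon epithelium, with all 10 listed epithelial genes above 3 reads in both untreated libraries and CDX1 going from 20 and 19 reads to 0 in both histidine-depleted ones. PTPRC, the pan-leukocyte gene, had at most 2 reads in any library, and CD3D, MS4A1, NCAM1, KIT and TPSAB1 had 0 in all 6. The 14 leukocyte markers summed to 4.42 and 4.87 RPM (reads scaled to the library total) in untreated, 3.65 and 3.66 in histidine-depleted and 7.73 and 7.74 in tryptophan-depleted libraries. The epithelial markers summed to between 8460 and 11100 RPM, most of it from KRT8 and KRT18. Without histidine 4 of these 10 rose, KRT20 among them, and 6 fell, where 39.1% of all tested genes rose and 38.2% fell. CDX1 passed the filter on low values through the untreated libraries alone, so it could count only as lower. CDX2 fell from 469 and 457 to 182 and 172 normalized counts and LGALS4 from 54147 and 56465 to 17513 and 19660, in the libraries where CD274 was high. The part of this in the results was not tested. CD14 made up most of the leukocyte sum in the tryptophan-depleted libraries, and the tested leukocyte markers moved both ways. Without histidine CSF1R went from 6 and 6 reads to 39 and 41 and ITGAM from 60 and 77 to 114 and 95, while CD14 and CD4 fell. CSF1R passed the filter on low values through these libraries alone, and the call of ITGAM was lost with DESeq2, in the fit on all libraries, without untreated replicate 1 (log2 fold change 0.38) and without histidine-depleted replicate 1 (0.45). CD4 had 26 and 25 reads in untreated and 9 and 6 in histidine-depleted libraries. It passed the filter on low values through the untreated libraries alone, so it could count only as lower. The part of these genes in the results was not tested. The 8 fibroblast and endothelial markers summed to between 1.40 and 2.54 RPM.

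The promoter of CD274 is shown first, because genes of interferon and NF-kB signaling are among those described further on. RefSeq promoter windows (GRCh38.p14, 250 bases before to 50 bases after the start of transcription, 300 in all) were found for 9 of the 10 genes, in 12 windows since some genes have several starts. They were searched on both strands for GAS (TTCNNNGAA, the interferon-gamma activated site), ISRE (TTTC, any 2 bases and TTTC again, the site form of IRF factors), an NF-kB form (GGG, any 5 bases and CC), an AP-1 form (TGANTCA) and a TEAD form (CATTCC). Positions count from the start of transcription and are negative before it. In the CD274 window a GAS match began at -125 (chr9:5450409-5450433, plus strand) and overlapping ISRE matches at -208 and -202 (chr9:5450326-5450351 and chr9:5450332-5450357). NF-kB matches began at -63, and in reverse orientation at -62 and -20, of which the first and last are shown (chr9:5450471-5450496 and chr9:5450514-5450539). Capitals mark the matched letters.
CD274 GAS: ccgccgatTTCACCGAAggtcagga
CD274 ISRE, distal: ctgacatgTTTCACTTTCtgtttcat
CD274 ISRE, proximal: tgtttcacTTTCTGTTTCatttctat
CD274 NF-kB, distal: gcagaggtGGGCGGGACCccgcctcc
CD274 NF-kB, proximal: gagcagctGGCGCGTCCCgcgcggcc
LGALS9 ISRE: tgctttggTTTCTATTTCtttgttaa

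The LGALS9 match (chr17:27631171-27631196, plus strand) is printed for contrast, as that gene was lower without histidine, where CD274 was higher. Both were lower without tryptophan. HHLA2, which also had an ISRE match in a window (at 41), was lower in both depletions. Among the 12 windows of these genes 1 held GAS, 3 ISRE, 9 the NF-kB form, 2 the AP-1 form and 1 the TEAD form. Of all 35116 windows, 7.66% held GAS, 3.57% ISRE, 58.7% the NF-kB form, 7.71% the AP-1 form and 14.0% the TEAD form. CD274 was the 1 gene with GAS among the 9 searched, which leave out PDCD1LG2, and its window held neither the AP-1 form, found in HHLA2 and VTCN1, nor the TEAD form, found in PVR. These matches describe letters in a window and not bound sites.

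PD-L1 mRNA was the member with the largest log2 fold changes in the 2 comparisons that involve histidine depletion, while HHLA2 had the largest without tryptophan. CD274 (ENSG00000120217, chromosome 9, 5450503 to 5470566 of GRCh38, plus strand) had 37.2 and 31.8 normalized counts in untreated, 2804 and 2424 in histidine-depleted and 14.9 and 20.1 in tryptophan-depleted libraries. Both histidine-depleted libraries stood far above the other 4, and no groups overlapped. The histidine-depleted mean was 76.3-fold the untreated mean, a log2 fold change of 6.21 with a standard error of 0.11 (n = 2 each). By log2 fold change CD274 ranked 16 among 18288 tested genes. Tryptophan depletion gave the opposite sign, with a log2 fold change of -0.95 and a standard error of 0.32. That difference rests on 34 and 32 reads against 14 and 22, and it was not past the threshold with DESeq2 or without tryptophan-depleted replicate 1, where it was -0.74. Set against each other, the depletions differed by 7.15 on the log2 scale (standard error 0.17), or 149-fold.

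PDCD1LG2, the gene of the second PD-1 ligand (ENSG00000197646, chromosome 9, 5510531 to 5571282), lies next to CD274 on the same strand. It had 1 read in each untreated library, 16 and 19 reads after histidine depletion and 1 read in each tryptophan-depleted library. Scaled for depth, histidine-depleted cells had 16.1 times the untreated reads (95% interval 4.13 to 138, exact Clopper-Pearson, counting error only). Against tryptophan depletion the ratio was 17.0 (4.37 to 146). Both intervals rest on 35 against 2 summed reads and hold no spread between libraries. As the set was selected on these data, they are a description and not a test. Even so, its level per length after histidine depletion, 0.119 ± 0.024 RPKM (reads per kb of exon, scaled to the library total, SD, n = 2), was below that of CD274 in untreated cells, 0.163 ± 0.021.

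**Figure D1:**
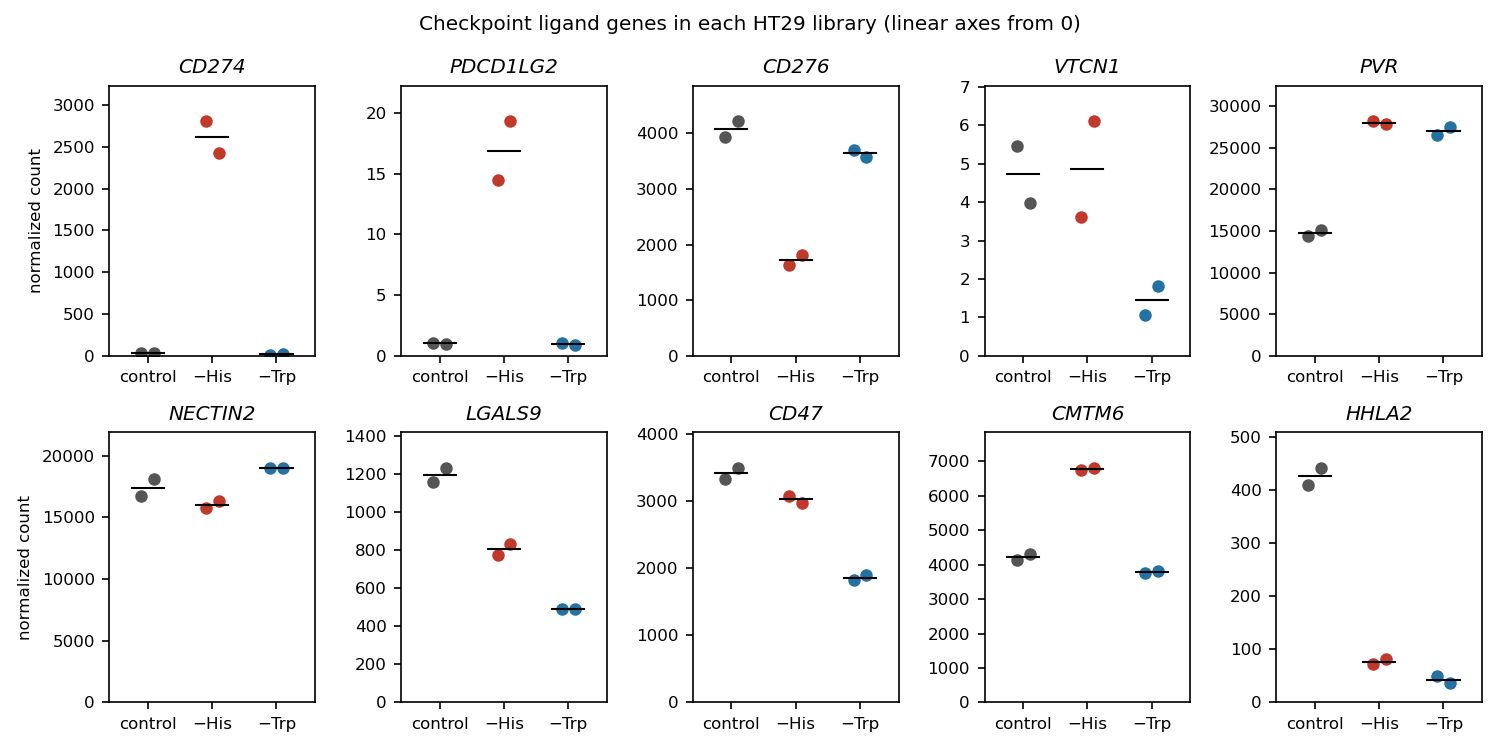
Normalized counts of the 10 genes in each of the 6 libraries (points) in control medium, without histidine (−His) and without tryptophan (−Trp), with group means as lines and a linear axis from 0 in each panel. CD274 stands at 2804 and 2424 without histidine and at most at 37.2 in the other libraries, while HHLA2 is lower in both depletions.

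The other B7 family genes of this set, CD276, HHLA2 and VTCN1, were lower or barely detected. CD276 (B7-H3, ENSG00000103855, chromosome 15, 73683966 to 73714514), a family member with inhibitory effects on T cells, had 3930 and 4221 normalized counts in untreated, 1633 and 1808 in histidine-depleted and 3711 and 3575 in tryptophan-depleted libraries. The histidine-depleted libraries were the low ones, with a log2 fold change of -1.24 (standard error 0.059), against -0.17 (0.049) after tryptophan depletion. Between the depletions CD276 thus differed by -1.08 on the log2 scale (0.053). HHLA2 (ENSG00000114455, chromosome 3, 108296529 to 108378285), a ligand of the activating receptor TMIGD2 and the inhibitory receptor KIR3DL3, had 409 and 442 normalized counts in untreated libraries. In the libraries without histidine it had 72.3 and 81.4, and in those without tryptophan 49.1 and 36.6. Its untreated libraries were the high ones, and log2 fold changes were -2.45 (0.13) and -3.30 (0.15). VTCN1 (B7-H4, ENSG00000134258, chromosome 1, 117143587 to 117210960) had 5 and 4 reads in untreated, 4 and 6 in histidine-depleted and 1 and 2 in tryptophan-depleted libraries. The libraries without tryptophan were the low ones and did not overlap the others, while the other groups overlapped. Scaled for depth, its ratios to untreated cells were 1.02 without histidine (95% interval 0.373 to 2.84, counting error only) and 0.315 without tryptophan (0.0549 to 1.26), on 3 to 10 summed reads per group.

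The TIGIT ligands were the most abundant of the set. PVR (CD155, ENSG00000073008, chromosome 19, 44643798 to 44666162) had 14445 and 15172 normalized counts in untreated, 28196 and 27820 in histidine-depleted and 26570 and 27469 in tryptophan-depleted libraries. All 4 depleted libraries lay above both untreated ones, with log2 fold changes of 0.93 (0.052) and 0.86 (0.049). The depletions differed by 0.052 (0.040), not past the threshold, which turned to -0.062 and past it with quantile normalization. Other genes on its strand, CEACAM19 among them, cover 20.6% of the exonic bases of PVR, where reads may not be assigned to it. NECTIN2 (CD112, ENSG00000130202, chromosome 19, 44846175 to 44889223) had 16700 and 18127 normalized counts in untreated, 15738 and 16331 in histidine-depleted and 19029 and 18969 in tryptophan-depleted libraries. Its log2 fold changes, -0.11 (0.054) and 0.12 (0.049), were the smallest against untreated cells among the tested members. Between the depletions it differed by -0.25 (0.043). Of the exonic bases of NECTIN2, 3.40% are shared with an antisense gene.

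CD47 and LGALS9, the members that bind other receptor families, were lower in depleted cells, more so without tryptophan. CD47 (ENSG00000196776, chromosome 3, 108043091 to 108091862), whose product signals to macrophages not to engulf a cell, had 3328 and 3499 normalized counts in untreated, 3083 and 2973 in histidine-depleted and 1822 and 1899 in tryptophan-depleted libraries. The groups stood apart in this order. Log2 fold changes were -0.16 (0.053) and -0.88 (0.051), and the depletions differed by 0.70 (0.046). LGALS9 (ENSG00000168961, chromosome 17, 27629798 to 27649560) encodes galectin-9, a ligand of TIM-3 on T cells. It had 1159 and 1232 normalized counts in untreated, 773 and 833 in histidine-depleted and 490 and 491 in tryptophan-depleted libraries. The order was that of CD47, with log2 fold changes of -0.57 (0.069) and -1.29 (0.070) and a difference between the depletions of 0.71 (0.066). Reads of LGALS9 are uncertain because near-identical copies exist elsewhere on the chromosome and another gene on its strand covers 5.10% of its exonic bases.

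CMTM6 (ENSG00000091317, chromosome 3, 32481312 to 32502852), the membrane protein that protects PD-L1, had 4122 and 4310 normalized counts in untreated, 6741 and 6813 in histidine-depleted and 3763 and 3805 in tryptophan-depleted libraries. As for CD274, the histidine-depleted libraries were the high ones and the tryptophan-depleted ones the low ones, over a far smaller range. Its log2 fold changes were 0.69 (0.050) and -0.16 (0.048), and the depletions differed by 0.84 (0.040). Of the exonic bases of CMTM6, 8.40% are shared with CMTM7 on the other strand.

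**Figure D2:**
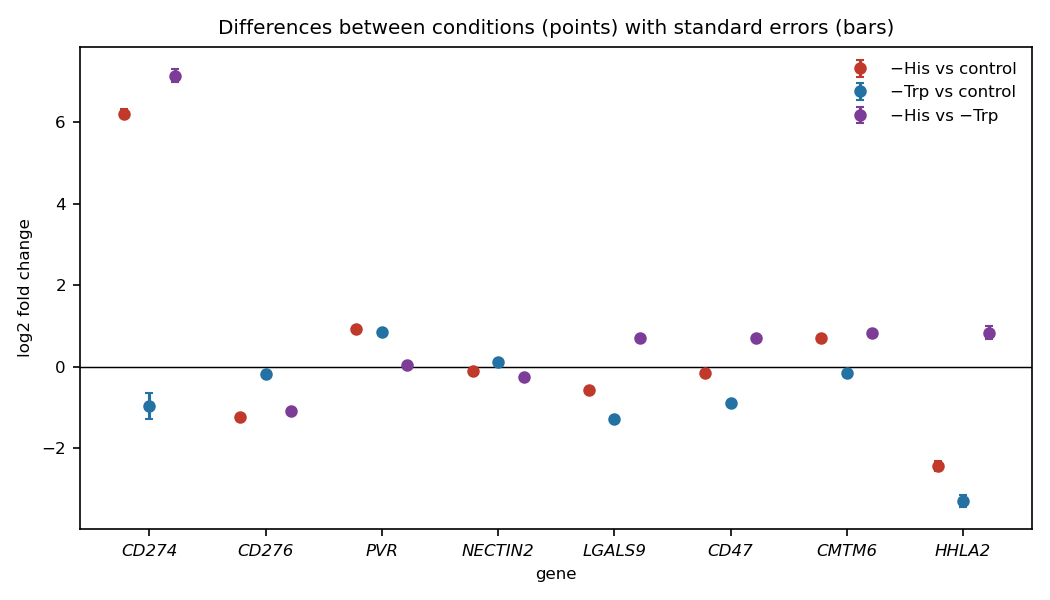
Log2 fold changes (points) with standard errors (bars) of the 8 genes that passed the filter on low counts, for each depletion against control medium and for the depletions against each other. CD274 lies at 6.21 without histidine and at -0.95 without tryptophan, and PVR lies near 0 in the comparison of the depletions.

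Of the 10 genes, 8 passed the filter on low values (mean of 10 or more) and were tested in each comparison, while PDCD1LG2 and VTCN1 did not. After histidine depletion 3 of these were higher and 4 lower past an adjusted p of 0.05 in limma, where 77.3% of all 18288 tested genes passed, 39.1% higher and 38.2% lower. After tryptophan depletion 2 were higher and 6 lower, where 70.8% of 17960 genes passed, 36.1% higher and 34.8% lower. With the depletions set against each other, 5 were higher without histidine and 2 lower, where 76.7% of 18264 genes passed, 38.7% higher and 38.0% lower. Requiring in addition a log2 fold change of at least 1 in size left 1 higher and 2 lower without histidine, where 16.4% and 16.1% of genes passed (32.5% in all). It left 2 lower without tryptophan, where 10.4% passed lower and 10.0% higher (20.5% in all), and 1 higher and 1 lower between the depletions, where 16.0% and 15.8% passed (31.7% in all). In each comparison the groups did not overlap for any of the 8 genes, as for 88.1%, 84.1% and 88.6% of all tested genes. Because these contrasts also led to the choice of the set, nothing is read from these counts. Some small differences depended on a single library or on the settings. After tryptophan depletion NECTIN2 lost its call without untreated replicate 1 (log2 fold change 0.060) and without either tryptophan-depleted replicate (0.12 each), which left 1 higher gene. CD276 lost it without tryptophan-depleted replicate 2 (-0.15), CMTM6 without tryptophan-depleted replicate 1 (-0.15), and CD47, for histidine depletion, without histidine-depleted replicate 2 (-0.13). For histidine depletion NECTIN2 gained a call in 5 of 14 alternatives, among them quantile normalization (-0.37), edgeR (-0.12) and the fit without untreated replicate 1 (-0.17).

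Levels per length put the ligands in order. In untreated cells NECTIN2 was at 90.3 ± 3.2 RPKM (SD, n = 2), PVR at 27.6 ± 0.34, CMTM6 at 21.2 ± 0.20 and CD276 at 14.4 ± 0.41. CD47 followed at 8.05 ± 0.11, LGALS9 at 4.06 ± 0.087 and HHLA2 at 2.31 ± 0.075, while CD274 (0.163 ± 0.021), VTCN1 (0.030 ± 0.0074) and PDCD1LG2 (0.0083 ± 0.00074) were lowest. No neighbours in this order overlapped between libraries. Without histidine CD274 was at 10.9 ± 1.2, between CMTM6 at 30.1 ± 0.078 and CD47 at 6.30 ± 0.19, and so moved from rank 8 to rank 4 of the 10. Without tryptophan the order was that of untreated cells, and VTCN1 and PDCD1LG2 overlapped.

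**Figure D3:**
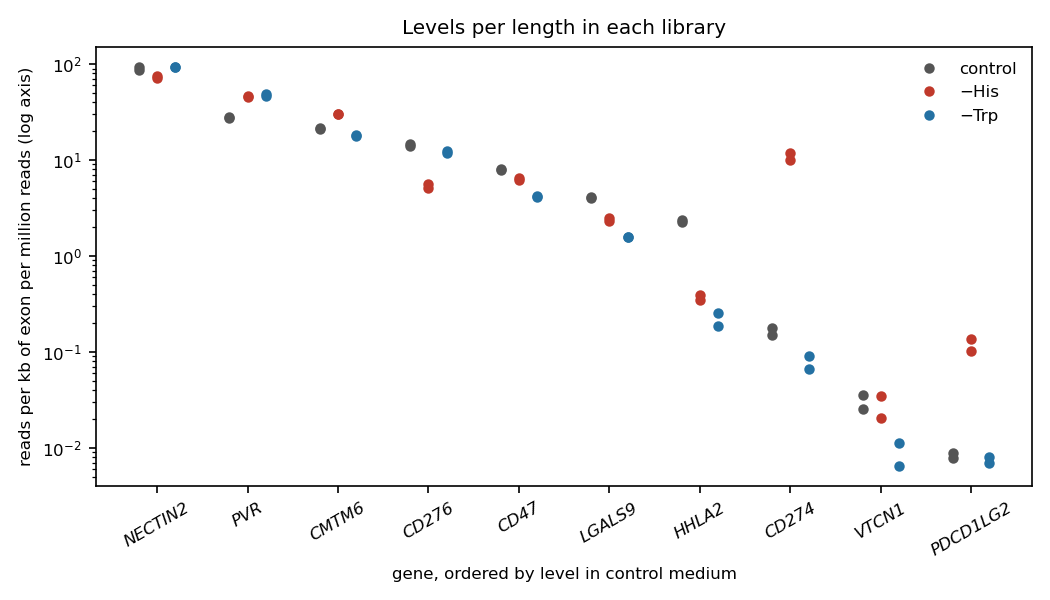
RPKM (log axis) of each gene in each library, ordered by the level in control medium. CD274 goes from 0.163 in control medium to 10.9 without histidine, past CD276, CD47, LGALS9 and HHLA2.

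As the study concerns shortage of histidine, the codons of the canonical coding sequences were counted. Histidine codons made up 3.10% of CD274 (9 of 290), 3.66% of PDCD1LG2 and 3.66% of LGALS9, against a median of 2.43% over 19727 coding sequences. The other 7 members were below that median, down to a single histidine codon among the 183 codons of CMTM6. For tryptophan codons 7 of the 10 members were above the median of 1.13%, up to 2.40% in PVR, and CMTM6 has 0.

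Over the 6 libraries, the profiles most like that of CD274 were sought among 11014 protein-coding genes averaging 100 or more normalized counts, by the root mean square difference of log2 values relative to the untreated mean. HSPA6, a stress-inducible heat shock protein gene with a near-identical copy, was closest (0.556). It was followed by TMEM71 (0.591), the cytokine gene IL32 (0.644), RELN, the gene of the secreted protein reelin (0.829), and GLIPR1 (0.849). HSPA6 had 19.7 and 19.9 normalized counts in untreated, 1116 and 1132 in histidine-depleted and 19.2 and 15.6 in tryptophan-depleted libraries. Their likeness to CD274 over these libraries is what they were chosen by.

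Interferon-gamma, JAK-STAT and IRF genes that act upstream of CD274 were compared next, from a list of 19. The list is wider than the interferon pathway and also holds EGFR, IL6ST, STAT3, STAT5A, STAT5B and PTPN11. Without histidine 12 rose, 3 fell and 4 did not pass the threshold, with a median log2 fold change of 0.33 against 0.010 for all tested genes, of which 39.1% rose and 38.2% fell. SOCS1 is among the 12, with 5 and 2 reads in untreated and 24 and 20 in histidine-depleted libraries. It passed the filter on low values through the histidine-depleted libraries alone, so it could count only as higher, and it was not tested otherwise. Without tryptophan 13 of 18 rose and 4 fell, with a median of 0.41 against 0.013 for all tested genes, of which 36.1% rose and 34.8% fell. In the direct comparison 8 of 18 were higher without histidine and 7 lower, with a median of -0.0087, where 38.7% and 38.0% of all tested genes were. Which genes led differed. IRF1, the interferon-induced transcription factor that acts on CD274, had 1318 and 1413 normalized counts in untreated, 5059 and 5082 in histidine-depleted and 1898 and 1885 in tryptophan-depleted libraries. Its log2 fold changes were 1.90 (limma adjusted p = 1.11e-19) and 0.46 (limma adjusted p = 4.25e-13), and it was higher by 1.42 without histidine than without tryptophan (limma adjusted p = 1.75e-14). JAK2, a kinase of the interferon-gamma receptor that lies near CD274 on chromosome 9, had the reverse pattern. It had 364 and 341 normalized counts in untreated, 389 and 397 in histidine-depleted and 951 and 959 in tryptophan-depleted libraries, a log2 fold change of 1.43 without tryptophan (limma adjusted p = 9.95e-38) and 0.17 without histidine (limma adjusted p = 0.107). With quantile normalization the latter was 0.38 and past the threshold (limma adjusted p = 0.00205).

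SOCS3, a feedback inhibitor of cytokine receptors, rose by 3.21 on the log2 scale without histidine, from 43.7 and 62.7 to 500.5 and 480 normalized counts (limma adjusted p = 1.37e-15), and by 1.05 without tryptophan (limma adjusted p = 5.14e-07). IL6ST, the shared receptor chain of the interleukin-6 family, rose by 1.98 (limma adjusted p = 3.37e-20) and 0.82 (limma adjusted p = 2.05e-35), and IRF2 by 1.70 (limma adjusted p = 2.79e-18) and 0.31 (limma adjusted p = 7.41e-06). The receptor gene IFNGR1 fell by 0.29 in both comparisons with untreated cells (limma adjusted p = 2.60e-05 and 5.47e-08).

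Other transcription factors known to act on CD274 were taken as a list of 20. Without histidine 14 rose and 4 fell, 9 of the former by at least 1 on the log2 scale, with a median of 0.85, where 39.1% of all tested genes rose (16.4% by at least 1) and 38.2% fell. Without tryptophan 11 rose and 6 fell, with a median of 0.13, where 36.1% of all tested genes rose and 34.8% fell. In the direct comparison 14 were higher without histidine and 5 lower (38.7% and 38.0% of all tested genes), with a median of 0.64 against 0.011 for all tested genes. RELA, an NF-kB subunit, had 6819 and 7234 normalized counts in untreated, 30485 and 31078 in histidine-depleted and 9582 and 9430 in tryptophan-depleted libraries. It rose by 2.14 (limma adjusted p = 3.95e-21) and by 0.43 (limma adjusted p = 2.19e-15). The AP-1 genes FOSL1 and JUN rose by 2.79 and 1.64 without histidine (limma adjusted p = 1.40e-23 and 8.06e-19). Without tryptophan FOSL1 rose by 0.21 and JUN fell by 0.61 (limma adjusted p = 0.000154 and 6.00e-24), the call of FOSL1 being lost without tryptophan-depleted replicate 2 (0.16). ZEB1, a repressor of epithelial genes, rose by 3.43 without histidine, to 259 and 197 normalized counts from 24.1 and 16.9 (limma adjusted p = 2.47e-13), and by 1.46 without tryptophan (limma adjusted p = 1.00e-06). EPAS1, a hypoxia-inducible factor, rose in both depletions, by 1.18 and 1.38 (limma adjusted p = 3.26e-16 and 2.78e-59). MYC fell by 0.81 without tryptophan (limma adjusted p = 1.14e-34).

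Among 24 genes for stability, glycosylation and traffic of the ligand proteins, 11 rose and 12 fell without histidine, and 13 rose and 6 fell without tryptophan, with medians of -0.056 and 0.18. Of all tested genes 39.1% rose and 38.2% fell without histidine, and 36.1% rose and 34.8% fell without tryptophan. In the direct comparison 7 were higher without histidine and 15 lower, with a median of -0.27, where 38.7% and 38.0% of all tested genes were. CMTM4, a relative of CMTM6 with the same action on PD-L1, went the other way from CMTM6. It had 11155 and 11368 normalized counts in untreated, 4875 and 5339 in histidine-depleted and 13608 and 13792 in tryptophan-depleted libraries, and log2 fold changes of -1.13 (limma adjusted p = 8.29e-16) and 0.28 (limma adjusted p = 8.60e-08). CMTM7 fell by 0.99 without histidine (limma adjusted p = 1.34e-13) and was 0.023 without tryptophan (limma adjusted p = 0.711). STT3A, a catalytic subunit for N-glycosylation, rose by 0.95 and 0.38 (limma adjusted p = 3.19e-14 and 9.37e-12). OTUB1, a deubiquitinase, rose by 0.64 without histidine and fell by 0.57 without tryptophan (limma adjusted p = 2.25e-11 and 9.41e-23). CUL3, a ubiquitin ligase scaffold, rose by 0.78 and 0.82 (limma adjusted p = 7.21e-13 and 5.75e-36), and ADAM17, a protease that sheds surface proteins, rose by 0.86 without tryptophan (limma adjusted p = 1.33e-35). QPCTL, the enzyme that modifies CD47 for binding to SIRPA, fell by 0.33 without histidine and rose by 0.49 without tryptophan (limma adjusted p = 9.67e-05 and 5.91e-13).

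Other ligands of immune receptors made a list of 36, of which 26 were tested for histidine and 23 for tryptophan depletion. Without histidine 16 rose and 9 fell, with a median log2 fold change of 0.91, and without tryptophan 12 rose and 7 fell, with a median of 0.22. Among the 16 are CD200, HLA-G and MICB, with untreated means of 6.61, 3.06 and 6.66. They passed the filter on low values through the histidine-depleted group alone, so they could count only as higher. The same holds for MICB in the direct comparison. The shares over all tested genes were 39.1% higher and 38.2% lower, and 36.1% higher and 34.8% lower. In the direct comparison 11 of 24 were higher without histidine and 10 lower, with a median of 0.099, where 38.7% and 38.0% of all tested genes were. ULBP2, a stress-induced ligand of the activating receptor NKG2D, had 160 and 173 normalized counts in untreated, 2383 and 2315 in histidine-depleted and 322 and 328 in tryptophan-depleted libraries, a rise of 3.82 and 0.96 (limma adjusted p = 2.03e-22 and 2.26e-13). RAET1L, of the same family, rose by 1.13 and fell by 0.95 (limma adjusted p = 1.02e-08 and 3.42e-07), and reads may be split between these similar genes. BTN2A2, a butyrophilin, rose by 1.76 without histidine and fell by 1.25 without tryptophan (limma adjusted p = 2.93e-14 and 4.58e-13). VSIR, the gene of VISTA, rose by 0.84 and 1.30 (limma adjusted p = 3.77e-11 and 5.43e-49). Several ligands fell in both. CD24, which binds Siglec-10 on macrophages, fell by 1.81 and 1.37 (limma adjusted p = 9.11e-20 and 8.49e-58), CEACAM1 by 2.03 and 0.44 (limma adjusted p = 1.09e-19 and 3.87e-16), and the nectin genes NECTIN1 by 1.83 and 0.38 and NECTIN3 by 0.80 and 0.89 (limma adjusted p = 2.57e-19, 6.12e-12, 1.14e-10 and 8.88e-26).

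Of 17 listed neighbours of CD274 on chromosome 9, 15 were tested, and 6 rose and 5 fell without histidine, with a median log2 fold change of 0.014. Over all tested genes 39.1% rose and 38.2% fell. RLN1, with 3 and 7 untreated reads and 20 and 13 without histidine, passed the filter on low values through the histidine-depleted libraries alone. Without tryptophan 6 rose and 4 fell (36.1% and 34.8% of all tested genes), with a median of 0.027. There GLDC (2 and 11 untreated reads, 17 and 14 without tryptophan) and RLN2 (21 and 22, then 4 and 9) passed it through their higher group alone. The filter thus set the direction in which these genes could count. In the direct comparison 5 were higher without histidine and 6 lower (38.7% and 38.0% of all tested genes), with a median of -0.18. RLN2 had 22 and 25 reads without histidine and 4 and 9 without tryptophan, and GLDC 10 and 10, then 17 and 14. The filter here was on the mean of all 6 libraries. Both genes averaged 10 or more normalized counts in only 1 of the 2 groups compared, so no direction is read from them. PLGRKT, the gene next to CD274 on its other side, had 579 and 592 normalized counts in untreated, 498 and 443 in histidine-depleted and 560 and 503 in tryptophan-depleted libraries. It fell by 0.31 without histidine (limma adjusted p = 0.00210), a call that was lost without histidine-depleted replicate 2 and with quantile normalization. ERMP1 fell by 2.33 and AK3 by 1.76 (limma adjusted p = 9.36e-21 and 8.33e-19), while RIC1 rose by 0.49 (limma adjusted p = 2.26e-07). Of 15 receptors for the ligands, at most 30 reads were found in any library, and PDCD1, the gene of PD-1, had between 0 and 3. A few passed the filter on low values, in part through the 1 group where they were high, so no count or p-value is read from them. HAVCR2, the gene of TIM-3, had 0 and 4 reads in untreated, 21 and 22 in histidine-depleted and 1 and 3 in tryptophan-depleted libraries. BTLA had 8 and 2, 23 and 17, and 13 and 6 reads in the same order, LAG3 19 and 12, 11 and 8, and 17 and 30, and PVRIG 7 and 10, 6 and 7, and 13 and 20. These 4 genes, named after their values were seen, thus were not all highest in the same condition.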

How the data were processed

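Stranded mRNA libraries with UMI adapters were sequenced in pairs. Per the submitters' processing notes the tools were STAR 2.7.10a, HTSeq 2.0.5 and DESeq2, on GRCh38. The authors deposited 1 table for each depletion, whose values are a signal without negative values, namely gene counts divided by size factors. Whether UMIs were used to collapse reads, and the strand setting, are not given in the sources used here. Division by the step of each library gave whole reads for 100% of values (tolerance 0.001). Of 60676 identifiers 60357 were found in gencode 44.

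Each depletion was tested within its table with limma 3.58.1 in R 4.3.3 (trend, two-sided) on log2(normalized count + 1), over genes averaging 10 or more, with Benjamini-Hochberg adjustment over all tested genes and a threshold of 0.05. This scale understates the change of low genes. Recovered reads of all 6 libraries, put on 1 scale with median-of-ratios factors, served for the direct comparison and for the values printed per library, so folds against untreated cells can differ slightly from those values. Of each list, genes with the largest changes past the threshold and a mean of at least 100 in the higher group were named, with 10 genes fixed by name and the 5 profiles most like CD274. Not every gene so selected is printed. HAVCR2, BTLA, LAG3, PVRIG and the marker genes named were outside this rule. Of the genes fixed by name, 1 is not reported here. Members and lists were chosen with earlier results of these data known. The alternatives tried were no filter or one at a mean of 50, a pseudocount of 0.5 or 8, no trend, quantile normalization, edgeR 4.0.16 with TMM, DESeq2 1.42.0, a replicate block, 1 fit on all libraries and each library left out. The code was tested on simulated data. Plots were drawn with matplotlib 3.10.9 in Python 3.11.15.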

Additional observations from a re-analysis of the deposited data

How the results depend on the processing

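Of the values of the 8 tested members under alternative settings, 323 kept their direction and side of the threshold, 14 lost and 5 gained a call, and 1 turned. That was PVR between the depletions (-0.062 with quantile normalization, then past the threshold). CD274 stayed between 5.95 and 6.32 without histidine, between -1.16 and -0.74 without tryptophan and between 6.69 and 7.35 between the depletions. With a log2 fold change of at least 1 in size, a rule added after seeing the data, counts were 3002 higher and 2947 lower genes without histidine (members 1 and 2), 1801 and 1873 without tryptophan (members 0 and 2), and 2914 and 2880 between the depletions (members 1 and 1). Members higher without tryptophan numbered 1 with no filter, without the trend and with quantile normalization, and 1 to 2 with each library left out. IFNGR1 between the depletions, -0.018, ranged from -0.059 to 0.023 with a library left out. CD4 without tryptophan, -0.0042, was 0.0151 with edgeR, 0.0099 with DESeq2 and 0.0030 in the fit on all libraries, and -0.185 to 0.177 with a library left out. RIC1 without tryptophan, -0.028, was 0.054 with quantile normalization and -0.076 to 0.020 with a library left out. The cause was not tested. On recovered reads, edgeR called 7169 higher and 7111 lower genes without histidine and 6490 and 6349 without tryptophan, and DESeq2 called 6363 and 6103, and 5485 and 5264. With the replicate block, calls were 7311 and 7121 without histidine, 6501 and 6265 without tryptophan, and 7095 and 6974 between the depletions, and NECTIN2 without histidine was then past the threshold (-0.11). In the labels same-numbered libraries share only a number, and whether they were handled together is not given. Their deviations correlated at 0.108 (untreated with histidine-depleted), -0.018 (untreated with tryptophan-depleted) and -0.051 (the depletions), which cannot settle this. In fits with a single library left in a group, that library is assumed to vary like the others. A filter at a mean of 50 left CD274 untested for tryptophan depletion. Depth limits PDCD1LG2 and VTCN1, with at most 19 reads per library.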
